A study of Mus musculus with 4 samples.

Results

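The endothelin and angiotensin system was followed through 8 genes picked by name for their roles: the endothelin precursors *Edn1* and *Edn3*, the angiotensin precursor *Agt*, the converting enzymes *Ece1* and *Ace*, the endothelin receptors *Ednra* and *Ednrb*, and the angiotensin receptor *Agtr1a*. They are 8 of the 23337 genes listed for each library, and all 8 had reads in every library. The data are 4 RNA-seq libraries of whole hearts from C57BL6/J mice, and each library held the RNA of 5 hearts of both sexes, mixed within 1 group. The groups were PIMT fl/fl mice, which served as controls, at 2 and at 6 months of age, and csPIMT-/- mice at the same 2 ages. PIMT fl/fl mice carry loxP sites around exons 3 and 4 of the PIMT gene (*Tgs1* in the files, a coactivator-binding methyltransferase), and the labels name their genotype WT. In csPIMT-/- mice the same floxed gene meets Cre recombinase driven by the α-myosin heavy chain promoter, which is active in cardiomyocytes from late gestation, so that the other cells of the heart keep PIMT. Whether the controls carried Cre is not given in the sources used here. With 1 library per group there is no replicate library at either age, and the question of how each gene differs between genotypes was answered by ratios whose intervals cover counting error alone.

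Endothelins are short peptides cut from larger precursors. Proprotein convertases such as furin make the first cuts, endothelin converting enzyme makes the last, and the active peptides act on receptor A, which drives contraction of vessels and growth of cardiomyocytes, and on receptor B, which clears endothelin and relaxes vessels through the endothelium. Angiotensinogen is cut by renin to angiotensin I, the peptidase Ace turns it into angiotensin II, and angiotensin II acts mainly through type 1 receptors. Both systems signal through Gq proteins and phospholipase C, and both are known in the heart for growth and scarring under load and as drug targets in heart failure.

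The libraries held from 29823073 to 40705783 reads on genes. Values are normalized counts, which are reads per gene put on a common scale across the 4 libraries, and 1 read was worth 0.865 to 1.23 of them. *Tgs1* had normalized counts of 579.7 and 816 in the PIMT fl/fl libraries of 2 and 6 months, and of 160.3 and 162 in the csPIMT-/- libraries, in the direction the labels give. The 8 cardiomyocyte markers had reads in every library, with summed normalized counts between 1192466 and 1534962. The pools also differed in content. The 8 atrial markers summed to 42686 in the 2-month PIMT fl/fl library against 130324 to 355430 in the other 3, and all 8 were past 2-fold higher in csPIMT-/- at 2 months (*Bmp10* 5.19, 8564, 6296 and 1079 in 2-month PIMT fl/fl, 2-month csPIMT-/-, 6-month PIMT fl/fl and 6-month csPIMT-/-). The 2-month csPIMT-/- library alone had high *Ucp1* (1766 against 8.65 to 93.2), a brown fat marker, and *Bpifa1* (979 against 0 to 8.32), an airway marker. The 4 Y-linked markers summed to 8087 in the 2-month PIMT fl/fl library and to 449 to 1176 in the others. Ratios of csPIMT-/- over PIMT fl/fl also followed the GC content of the transcript across all genes, with Spearman's rho of 0.58 at 2 months and 0.607 at 6 months. With this trend subtracted, the *Tgs1* ratios of 0.276 and 0.199 at 2 and 6 months became 0.602 and 0.495. In bulk tissue, fewer cells of a type and less RNA per cell cannot be told apart.

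The promoters of *Edn1*, *Edn3* and *Ace* are shown because these genes had the highest 6-month ratios among the 8. Each line gives the 250 bases before the RefSeq start (GRCm38.p6), 5′ to 3′ on the strand of the gene, and capitals mark the matches on either strand to any of 5 motifs.
Edn1 chr13:42301226-42301475 (plus strand): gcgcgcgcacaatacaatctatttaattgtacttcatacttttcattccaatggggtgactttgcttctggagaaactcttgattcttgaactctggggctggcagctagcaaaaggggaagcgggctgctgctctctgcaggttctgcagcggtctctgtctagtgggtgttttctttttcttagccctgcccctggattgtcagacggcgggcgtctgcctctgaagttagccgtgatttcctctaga
Edn3 chr2:174760369-174760618 (plus strand): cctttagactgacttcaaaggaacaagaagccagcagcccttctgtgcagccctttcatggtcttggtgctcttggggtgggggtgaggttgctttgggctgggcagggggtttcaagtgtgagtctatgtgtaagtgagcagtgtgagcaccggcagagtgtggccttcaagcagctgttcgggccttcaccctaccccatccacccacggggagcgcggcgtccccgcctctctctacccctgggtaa
Ace chr11:105967698-105967947 (plus strand): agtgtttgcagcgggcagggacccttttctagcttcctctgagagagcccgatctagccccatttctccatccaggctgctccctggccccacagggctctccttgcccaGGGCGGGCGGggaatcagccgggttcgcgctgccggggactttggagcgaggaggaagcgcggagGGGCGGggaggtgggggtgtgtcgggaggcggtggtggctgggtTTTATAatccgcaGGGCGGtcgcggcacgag
The motifs in capitals were the half-site bound by many nuclear receptors, searched as AGGTCA; the site of AP-1, the dimer of Fos and Jun proteins, searched as TGANTCA; the site of the GATA factors of heart and blood, searched as AGATAA; the TATA box, at which transcription complexes form, searched as TATAAA; and the GC box bound by Sp1 and its relatives, searched as GGGCGG. The *Ace* promoter shown held 4 matches to the GC box, of which the pair farthest upstream overlap, and a TATA box on the reverse strand at -31 to -26. The RefSeq table lists a further, internal *Ace* start, whose window (chr11:105974939-105975188) held a nuclear receptor half-site at -50 to -45 and an E-box. The *Edn1* and *Edn3* windows held none of these 5 motifs, and *Edn3* had 2 matches to the E-box CANNTG, a motif that was searched but not put in capitals. Among 32851 promoters of the same length, the share with a match was 14.0% for the half-site, 6.75% for AP-1, 9.99% for GATA, 12.4% for the TATA box, 32.7% for the GC box and 66.2% for the E-box. Of the 8 genes, 7 had a promoter in the RefSeq table, and *Agtr1a* had none there. These matches are descriptions of sequence and say nothing of binding.

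At 2 months, 2 of the 8 genes, *Edn3* and *Ace*, were more than 2-fold higher in the csPIMT-/- heart, where 17.3% of the 15152 genes with at least 10 reads in either library were. None was more than 2-fold lower, against 22.5% of all genes. At 6 months, 4 of the 8, *Edn1*, *Edn3*, *Ece1* and *Ace*, were more than 2-fold higher, against 16.9% of 15218 genes, and *Agtr1a* alone was more than 2-fold lower, against 24.9%. *Edn3* reached 10 reads through the csPIMT-/- libraries only, so it had to be higher there to be counted. The median ratio of the 8 genes was 1.19 at 2 months and 2.0 at 6 months, and 1.09 and 1.7 without *Edn3*, beside 0.997 and 1.0 over all genes. After the trend of the ratio with GC content was subtracted, the shares of all genes more than 2-fold higher and lower were 14.9% and 11.5% at 2 months and 14.2% and 13.2% at 6 months. *Edn3* and *Ace* stayed past 2-fold at 2 months and *Edn1*, *Edn3* and *Ace* at 6 months, while *Ece1* and *Agtr1a* did not.

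**Figure D1:**
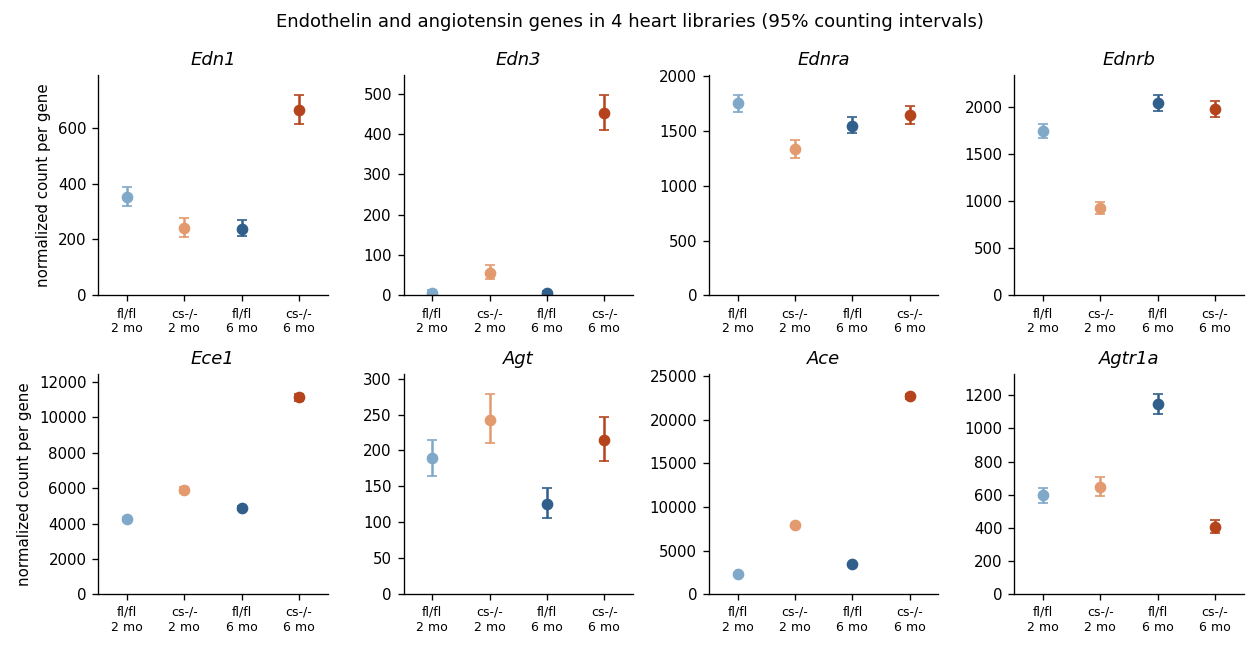
Normalized count per gene (y axes, each from 0) in the 4 libraries (x axis; fl/fl, PIMT fl/fl; cs-/-, csPIMT-/-; mo, months), 1 point per library with its exact 95% counting interval. *Edn1*, *Edn3*, *Ece1* and *Ace* are highest in the 6-month csPIMT-/- library, *Ednrb* is lowest in the 2-month csPIMT-/- library, and *Agtr1a* is highest in the 6-month PIMT fl/fl library.

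*Edn1* encodes the main endothelin of vessels and heart and lies on chromosome 13 (GRCm38 42301476 to 42307990, plus strand). Its normalized counts were 353 in 2-month PIMT fl/fl, 242 in 2-month csPIMT-/-, 238 in 6-month PIMT fl/fl and 664 in 6-month csPIMT-/- hearts, from 408, 196, 271 and 638 reads. The 6-month csPIMT-/- library stood above the other 3, and the 2-month csPIMT-/- library lay between the controls. The ratio of csPIMT-/- over PIMT fl/fl was 0.684 (95% counting interval 0.574 to 0.814) at 2 months and 2.78 (2.41 to 3.22) at 6 months. With the GC trend subtracted the ratios were 0.983 and 4.22, so the lower value at 2 months was not kept and the higher value at 6 months was. Over the 2-month instead of the 6-month control, the 6-month ratio was 1.88. The endothelium is known as the main source of this peptide, and of 10 endothelial markers 1 was more than 2-fold higher and 3 lower at 2 months, and 2 higher and 2 lower at 6 months. The markers summed to 92504 and 76576 in the 2- and 6-month PIMT fl/fl libraries and to 86156 and 102994 in the csPIMT-/- libraries. None of the 10 was at 0, and their part in the *Edn1* ratios was not tested.

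*Edn3* encodes endothelin-3, best known for the development of neural crest cells and for its affinity for receptor B (chromosome 2, 174760619 to 174784042, plus strand). It was close to absent from the PIMT fl/fl libraries, with 8 and 6 reads (normalized counts 6.92 and 5.28 at 2 and 6 months), and had 45 reads (55.5) in the 2-month and 435 reads (453) in the 6-month csPIMT-/- library. Each csPIMT-/- library was above both PIMT fl/fl libraries. The ratio was 8.01 (3.74 to 19.7) at 2 months and 85.8 (39.1 to 235) at 6 months, the 9th highest of 15218 genes at that age. The width of these intervals comes from the few control reads. Subtracting the GC trend left ratios of 7.02 and 69.4.

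Markers of other cells moved in part with *Edn3*. Of 8 epicardial markers, 6 were more than 2-fold higher at 2 months and 2 at 6 months, and their sum was 1236 and 1115 in the PIMT fl/fl libraries against 4712 and 6209 in the csPIMT-/- libraries. *Upk3b*, a marker of the epicardial surface, was at 141 in PIMT fl/fl and 1341 in csPIMT-/- at 2 months, a ratio of 9.51, and at 161 and 141 at 6 months. *Wt1*, also epicardial, had ratios of 0.291 and 2, and *Krt18*, a keratin, had ratios of 9.9 and 32.7 and made up most of the sum at 6 months (153 in PIMT fl/fl and 5007 in csPIMT-/-). Of 8 Schwann and neural crest markers, 3 were higher and 1 lower at 2 months and 4 higher at 6 months, with sums from 682 to 915 across the 4 libraries and none at 0. The part of these cells in the *Edn3* ratios was not tested.

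*Agt* encodes angiotensinogen, the precursor of all angiotensins, which is made mainly by the liver and at a low level by the heart (chromosome 8, 124556534 to 124569706, minus strand). Its normalized counts were 189 and 126 in the PIMT fl/fl libraries of 2 and 6 months, against 243 and 214 in csPIMT-/- at these ages, from 218, 143, 197 and 206 reads. Both csPIMT-/- libraries were above both PIMT fl/fl libraries, although the counting intervals of 6-month csPIMT-/- (186 to 246) and 2-month PIMT fl/fl (164 to 215) overlapped. The ratios were 1.29 (1.06 to 1.57) at 2 months and 1.7 (1.37 to 2.12) at 6 months, and 0.827 and 1.08 with the GC trend subtracted. Of 8 liver markers, 1 was more than 2-fold higher at 2 months and 4 at 6 months. Their sum was 10091 in the 2-month and 3391 in the 6-month PIMT fl/fl library, beside an *Agt* ratio of 0.667 (0.536 to 0.827) for 6 over 2 months, and 14457 and 7064 in csPIMT-/- hearts. The part of liver RNA was not tested.

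*Ace* encodes the enzyme that makes angiotensin II and degrades bradykinin (chromosome 11, 105967945 to 105989964, plus strand). Its normalized counts were 2356 in 2-month PIMT fl/fl, 7876 in 2-month csPIMT-/-, 3403 in 6-month PIMT fl/fl and 22665 in 6-month csPIMT-/- hearts, the last from 21786 reads. The csPIMT-/- libraries were far above both PIMT fl/fl libraries. The ratio was 3.34 (3.2 to 3.5) at 2 months and 6.66 (6.44 to 6.89) at 6 months, at or above 93.4% and 98.0% of all genes tested. It was 2.2 and 4.33 with the GC trend subtracted and 2.31 and 9.62 over the control of the other age, so that every one of these settings left it past 2-fold. *Ace* is known in heart from endothelium, whose 10 markers, summed, had ratios of 0.931 at 2 months and 1.34 at 6 months. Single markers ran both ways, with ratios of 3.44 and 3.24 for *Vwf*, 0.579 and 3.25 for *Cldn5* and 0.313 and 0.333 for *Fabp4*, and the part of endothelium in the *Ace* ratios was not tested. Antisense genes overlap *Ace* (*Gm11651*), *Edn1* (*Gm47118*) and *Ece1* (*Gm13012*) in the annotation, none of them is listed for these libraries, and whether the counting used the strand is not given in the sources used here.

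*Ece1* encodes the membrane enzyme that makes the last cut to active endothelin (chromosome 4, 137862237 to 137965229, plus strand). Its normalized counts were 4238 and 4866 in the PIMT fl/fl libraries of 2 and 6 months, against 5879 and 11132 in csPIMT-/- at these ages. Both csPIMT-/- libraries were above both controls, and the 6-month one stood apart from the other 3. The ratio was 1.39 (1.33 to 1.44) at 2 months and 2.29 (2.21 to 2.36) at 6 months. With the GC trend subtracted it was 0.948 and 1.53, which took the 2-month value to the other side of 1 and the 6-month value under 2-fold. The GC content of its longest transcript is 54.8%, against 46.1% for *Edn1* and 43.9% for *Ednrb*.

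*Ednra*, the receptor through which endothelin-1 contracts smooth muscle (chromosome 8, 77663031 to 77724464, minus strand), lay within a narrow range. Its normalized counts were 1749 in 2-month PIMT fl/fl, 1332 in 2-month csPIMT-/-, 1547 in 6-month PIMT fl/fl and 1645 in 6-month csPIMT-/- hearts. The 2-month csPIMT-/- library was the lowest, and the 6-month one lay between the controls. The ratio was 0.761 (0.707 to 0.82) at 2 months and 1.06 (0.993 to 1.14) at 6 months, and 1.01 and 1.46 with the GC trend subtracted.

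*Ednrb*, the receptor that also clears endothelin (chromosome 14, 103814625 to 103844402, minus strand), had normalized counts of 1746 in 2-month PIMT fl/fl, 926 in 2-month csPIMT-/-, 2043 in 6-month PIMT fl/fl and 1977 in 6-month csPIMT-/- hearts. The 2-month csPIMT-/- library was the single low value. The ratio was 0.53 (0.487 to 0.577) at 2 months and 0.968 (0.91 to 1.03) at 6 months. It was the gene most moved by the GC trend, with ratios of 0.947 and 1.96 once the trend was subtracted. Per length of transcript, the level of *Ednra* over that of *Ednrb* was 1.13 and 0.858 in the PIMT fl/fl libraries of 2 and 6 months, against 1.63 and 0.943 in csPIMT-/- at these ages.

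*Agtr1a* encodes the main type 1 angiotensin receptor of the mouse heart (chromosome 13, 30336441 to 30382867, plus strand). Its normalized counts were 596 in 2-month PIMT fl/fl, 649.7 in 2-month csPIMT-/-, 1146 in 6-month PIMT fl/fl and 407 in 6-month csPIMT-/- hearts. The 6-month control was the highest and the 6-month csPIMT-/- library the lowest of the 4. The ratio was 1.09 (0.971 to 1.22) at 2 months, which includes 1, and 0.355 (0.316 to 0.398) at 6 months. It was 0.512 at 6 months with the GC trend subtracted and 0.682 over the 2-month control, both short of 2-fold. The call was kept with pairwise size factors (0.346), with TMM factors (0.348) and over the mean of both controls (0.467). Reads shared with the near-identical *Agtr1b*, which had at most 2 reads, are uncertain. The receptor is known from fibroblasts and smooth muscle; 2 of 8 fibroblast markers were more than 2-fold higher at 6 months and none lower, and none of 9 smooth muscle and pericyte markers was higher and 1 lower. Single markers ran both ways at 6 months. Ratios were 0.387 for *Rgs5*, 0.565 for *Myh11* and 0.537 for *Dpt*, but 2.29 for *Pdgfra*, 2.01 for *Col1a1* and 1.49 for *Cspg4*. The part of these cells in the *Agtr1a* ratio was not tested.

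**Figure D2:**
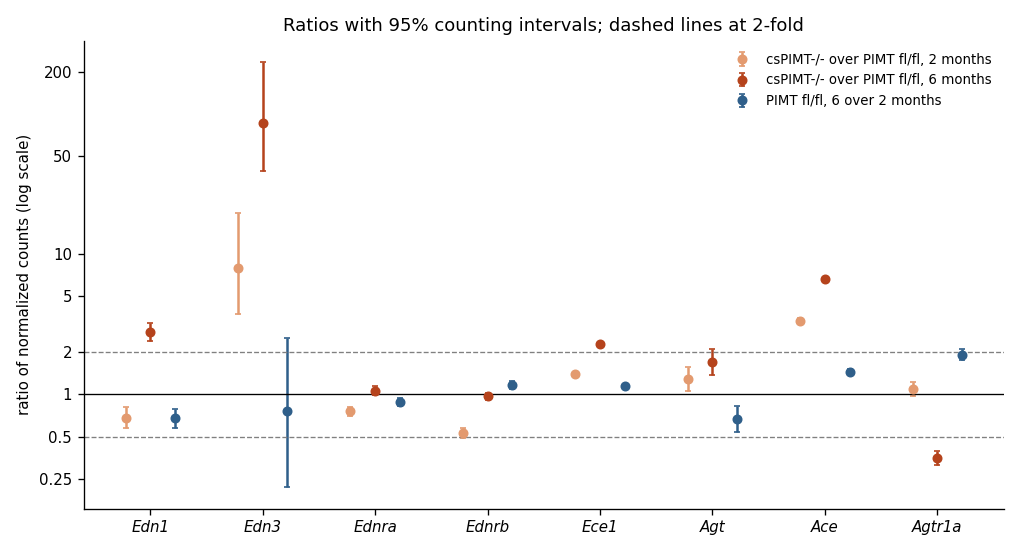
Ratio of normalized counts (y axis, log scale) for each of the 8 genes, for csPIMT-/- over PIMT fl/fl at 2 and 6 months and for the 6-month over the 2-month PIMT fl/fl library, with exact 95% counting intervals and dashed lines at 2-fold. *Edn3* and *Ace* are above 2-fold at both ages (8.01 and 85.8, 3.34 and 6.66), *Edn1* changes side between ages (0.684 and 2.78), and none of the 7 genes with enough reads is past 2-fold between the controls, where the interval of *Edn3* (0.218 to 2.51) reaches past 2-fold both ways.

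The PIMT fl/fl libraries show how far pools of the same genotype lay apart, although they also differ in age, in mice and in content. At 2 and 6 months their atrial markers summed to 42686 and 130324, Y-linked markers to 8087 and 1176, and liver markers to 10091 and 3391. Between them, 7 of the 8 genes had enough reads, and none of the 7 was past 2-fold in the higher direction at the later age, where 9.01% of 15132 genes were, or in the lower direction, where 4.65% were. *Edn3*, with 8 and 6 reads, was under the read minimum, and its ratio of 0.762 had an interval of 0.218 to 2.51. The ratio of 6 over 2 months ran from 0.667 for *Agt* and 0.675 (0.577 to 0.789) for *Edn1* to 1.92 (1.75 to 2.11) for *Agtr1a*. For *Edn1* this control ratio had the size of the 2-month genotype ratio. Within csPIMT-/- hearts, the 6-month library was higher than the 2-month one by 8.16-fold (5.99 to 11.3) for *Edn3*, 2.88-fold (2.8 to 2.96) for *Ace*, 2.75-fold (2.34 to 3.24) for *Edn1*, 2.13-fold (1.96 to 2.33) for *Ednrb* and 1.89-fold (1.83 to 1.96) for *Ece1*. *Agtr1a* was lower at 6 months, with a ratio of 0.626 (0.548 to 0.715), and for *Agt* the interval included 1 (0.722 to 1.08).

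Both csPIMT-/- libraries were above both PIMT fl/fl libraries for 4 of the 8 genes (*Ece1*, *Agt*, *Ace* and *Edn3*, the last measured through these libraries only), against 34.6% of 15589 genes, and below both for none, against 35.1%. A single test over both ages was possible, a limma fit of log2(normalized count + 1) on genotype and age with 1 residual degree of freedom, where the departure from additive effects stands in for replicate error. In it *Ace* rose in csPIMT-/- hearts by 2.24 ± 0.30 on the log2 scale (SE, limma adjusted p = 0.016, 4.72-fold, higher in both of 2 age pairs). *Edn3* had a difference of 4.5 ± 0.94 (SE, 22.7-fold, limma adjusted p = 0.029), but it entered the fit only through the csPIMT-/- libraries, so its direction was set by the read minimum and it is left out of the counts. Its limma adjusted p was 0.017 in the fit with no read minimum. Without the mean trend of the variance it was 0.08, beside 0.068 for *Ace*. Of the other 7 genes, *Ace* alone passed in the higher direction, against 11.0% of 14933 genes, and none in the lower, against 17.5%. At an unadjusted p under 0.05 limma had 2 of the 7 higher, *Ace* and *Ece1*, and none lower, against 20.5% and 24.6% of all genes. edgeR on recovered reads called *Ace* and none lower, against 11.3% and 17.1%, and DESeq2 called *Ace* and *Ece1* higher and none lower, against 15.4% and 20.8%. *Ece1* had a difference of 0.83 (limma adjusted p = 0.064), and the other 5 had limma adjusted p from 0.25 for *Ednrb* to 0.65 for *Ednra*. Neither *Ace* (limma adjusted p = 0.09) nor *Edn3* (0.11) was under 0.05 once the GC trend was subtracted, and no gene at all passed in that fit. *Ace* did not pass without the 2-month PIMT fl/fl library (limma adjusted p = 0.06).

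**Figure D3:**
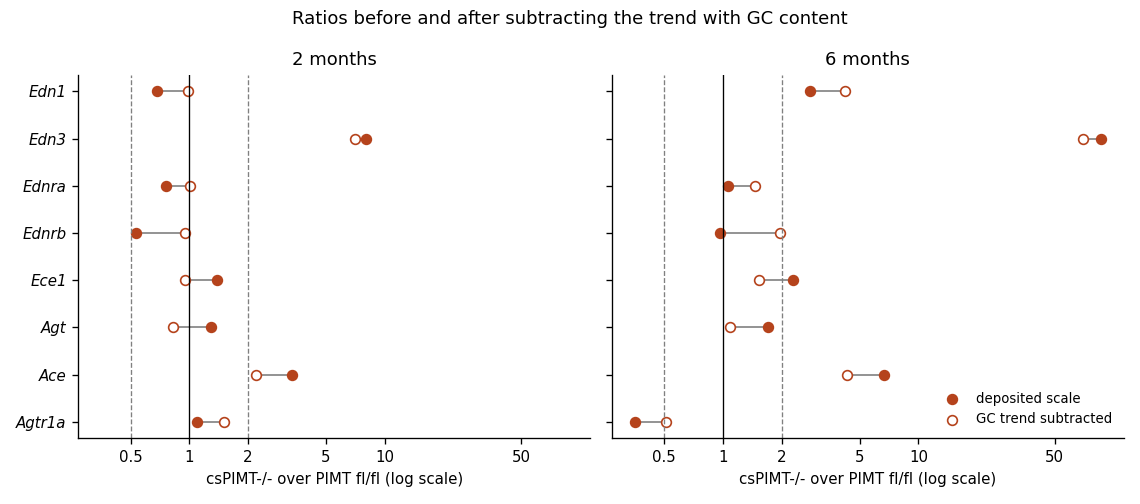
Ratio of csPIMT-/- over PIMT fl/fl (x axis, log scale) for the 8 genes at 2 and 6 months, on the deposited scale (filled) and after subtracting the trend with GC content (open), with dashed lines at 2-fold. The open points of *Edn3* and *Ace* stay past 2-fold at both ages, and those of *Ednrb* (0.947 and 1.96) lie farthest from their filled points in proportion.

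Compared per kilobase of the longest annotated transcript, the order of levels in the 2-month PIMT fl/fl heart was *Ece1* (880 normalized counts per kilobase), *Ednra* (482), *Ace* (480.3), *Ednrb* (425), *Agtr1a* (271), *Edn1* (165), *Agt* (99.8) and *Edn3* (2.22). *Ednra* and *Ace* did not differ beyond their counting intervals (462 to 504 and 462 to 499). In the 6-month csPIMT-/- heart the order was *Ace* (4620), *Ece1* (2311), *Ednrb* (481), *Ednra* (454), *Edn1* (310.3), *Agtr1a* (185), *Edn3* (145) and *Agt* (113). There the intervals of *Ednrb* and *Ednra* overlapped (459.9 to 503 and 432 to 477), and the others did not overlap with their neighbours. Per length, *Edn3* stood at 0.0135 and 0.0152 of *Edn1* in the PIMT fl/fl libraries of 2 and 6 months, at 0.158 in the 2-month and at 0.468 in the 6-month csPIMT-/- library. *Ace* over *Ece1* per length was 0.546 and 0.686 in the PIMT fl/fl libraries and 1.32 and 2.0 in the csPIMT-/- libraries.

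The rest of the pathway was read from lists of genes chosen by role. Renin, which starts the angiotensin chain and is made mainly in the kidney, had no read counted in any library for *Ren1* or *Ren2*. By counting error alone this allows up to 3 reads, or 2.6 to 3.7 normalized counts. Reads that could fit both genes are uncertain, so the limit holds only for reads that could be counted. Of 18 renin and angiotensin peptidase genes 14 had enough reads, and 4 were more than 2-fold higher and 2 lower at 2 months, and 1 higher and 5 lower at 6 months. Over all genes the shares were 17.3% higher and 22.5% lower at 2 months and 16.9% and 24.9% at 6 months. The median ratio of the list was 1.21 and 0.754, and 1.26 and 1.04 with the GC trend subtracted. With it subtracted, 4 of the list were higher and 1 lower at 2 months, and 2 and 3 at 6 months. Over all genes the shares were then 14.9% and 11.5% at 2 months and 14.2% and 13.2% at 6 months. The chymases, mast cell proteases that can make angiotensin II without Ace, were higher in csPIMT-/- at 2 months and lower at 6 months. *Cma1* had normalized counts of 51.9 and 66 in PIMT fl/fl and 181 and 28.1 in csPIMT-/- hearts, and *Mcpt4* 37.2 and 87.1 against 178 and 26. Of 6 mast cell markers, which include both genes, 5 had enough reads, and 3 were more than 2-fold higher and 2 lower at 2 months and 4 lower at 6 months, while *Fcer1a* was at 0 in the 2-month csPIMT-/- library. Aminopeptidase A (*Enpep*), which degrades angiotensin II, had ratios of 0.886 (0.802 to 0.978) and 0.482 (0.437 to 0.532), and 1.36 and 0.802 with the GC trend subtracted. The lowest of the list with 100 reads was *Lnpep*, the aminopeptidase that binds angiotensin IV, at 0.361 and 0.344, which became 0.912 and 0.967 with the GC trend subtracted. The highest at 6 months was *Ctsd*, a lysosomal protease, at 2.1 (2.08 to 2.12), and 1.35 with the trend subtracted.

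Of 6 other endothelin genes, 3 had enough reads at 2 months, with 2 higher and 1 lower past 2-fold. At 6 months 4 had enough reads, with 3 higher and 1 lower. Over all genes the shares were 17.3% higher and 22.5% lower at 2 months, and 16.9% and 24.9% at 6 months. With the GC trend subtracted, 1 of the list was higher at 2 months and 3 at 6 months, and none was lower. All genes then had shares of 14.9% higher and 11.5% lower at 2 months, and 14.2% and 13.2% at 6 months. Some higher calls rested on few reads. *Mmel1* had 7 reads in PIMT fl/fl and 11 in csPIMT-/- at 2 months, and its interval (0.793 to 6.81) included 1. *Kel* had 2 and 23 reads at 6 months. Each reached the read minimum there through csPIMT-/- only, so it had to be higher to be counted. *Edn2* had no read in any library. *Ece2*, a related converting enzyme, had normalized counts of 319 and 391 in PIMT fl/fl and 1028 and 1080 in csPIMT-/- hearts, with ratios of 3.22 (2.85 to 3.65) and 2.76 (2.47 to 3.09) that were 3.01 and 2.46 with the GC trend subtracted. *Mme*, or neprilysin, which degrades endothelins and natriuretic peptides, had 416 and 412 in PIMT fl/fl and 150.4 and 74.9 in csPIMT-/- hearts. Its ratios of 0.361 (0.294 to 0.442) and 0.182 (0.14 to 0.233) became 1.11 and 0.587 with the trend subtracted.

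Among 8 other angiotensin and bradykinin receptor genes, 5 had enough reads, with 1 higher and 2 lower past 2-fold at each age. The shares of all genes were 17.3% higher and 22.5% lower at 2 months, and 16.9% and 24.9% at 6 months. With the GC trend subtracted, 1 of the 5 was higher and 1 lower at 2 months, and 2 and 2 at 6 months. The all-gene shares were then 14.9% and 11.5% at 2 months, and 14.2% and 13.2% at 6 months. *Agtr2*, the type 2 receptor, had 26 and 10 reads in PIMT fl/fl and 4 and 0 in csPIMT-/- libraries, and *Mas1*, the receptor of angiotensin 1-7, had 15 and 12 against 2 and 0. At 6 months the 95% counting interval of the ratio reached up to 0.528 for *Agtr2* and 0.426 for *Mas1*. Both genes reached 10 reads through the PIMT fl/fl libraries only, so they had to be lower in csPIMT-/- to be counted. *Bdkrb2*, the bradykinin receptor, was at 44.1 and 18.5 in PIMT fl/fl and 144 and 127 in csPIMT-/- hearts, with ratios of 3.27 (2.33 to 4.64) and 6.87 (4.3 to 11.5), or 2.23 and 4.52 with the GC trend subtracted. *Agtrap*, which binds the type 1 receptor and promotes its uptake, had ratios of 1.28 and 1.6, which were 0.977 and 1.16 with the trend subtracted.

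Downstream, 23 Gq and phospholipase C genes were measured, and none was more than 2-fold higher and 6 lower at 2 months, and 1 higher and 5 lower at 6 months, with medians of 0.659 and 0.86. Of all genes 17.3% were higher and 22.5% lower at 2 months, and 16.9% and 24.9% at 6 months. The lower counts of the list lie near these shares and the higher counts lie below them. With the GC trend subtracted none of the list was higher and 3 were lower at each age, and the medians were 0.94 and 1.05. The shares of all genes were then 14.9% higher and 11.5% lower at 2 months, and 14.2% and 13.2% at 6 months. *Rgs2*, which shuts off Gq, was the lowest, at normalized counts of 3710 and 2128 in PIMT fl/fl against 496 and 268 in csPIMT-/- hearts, with ratios of 0.134 (0.12 to 0.148) and 0.126 (0.11 to 0.143). It kept 0.245 and 0.264 with the GC trend subtracted. *Itpr3*, an IP3 receptor, was the highest, at 1.88 and 2.53, and at 1.17 and 1.55 with the trend subtracted.

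The list of 9 mineralocorticoid genes, a hormone axis downstream of angiotensin, also holds glucocorticoid genes. Of the 9, 7 had enough reads at 2 months, with 2 higher and 2 lower past 2-fold. At 6 months 6 had enough reads, with 4 higher and 2 lower. The shares of all genes were 17.3% and 22.5% at 2 months and 16.9% and 24.9% at 6 months. With the GC trend subtracted 1 of the list was higher and 1 lower at 2 months, and 4 were higher and none lower at 6 months. For all genes the shares were then 14.9% and 11.5% at 2 months, and 14.2% and 13.2% at 6 months. *Hsd11b1*, which regenerates active glucocorticoid, had the highest 2-month ratio with 100 reads, 4.34 (3.62 to 5.21), or 8.19 with the trend subtracted. *Sgk1*, a kinase induced by corticosteroids, had the lowest, 0.304 (0.288 to 0.32), but was at 2.32 (2.23 to 2.42) at 6 months. Its normalized counts in PIMT fl/fl were 6794 and 3295 at 2 and 6 months. At 6 months *Fkbp5*, a glucocorticoid-induced chaperone, had 687 in PIMT fl/fl and 7938 in csPIMT-/- hearts against 519 and 779 at 2 months, a ratio of 11.6 (10.7 to 12.5) beside 1.5 at 2 months. The glucocorticoid receptor *Nr3c1* was at 0.316 (0.303 to 0.33) at 6 months and at 0.766 with the GC trend subtracted.

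Of 8 natriuretic peptide genes, which oppose angiotensin, 7 had enough reads. Past 2-fold, 2 were higher at 2 months and 3 at 6 months, and none was lower. Among all genes 17.3% were higher and 22.5% lower at 2 months, and 16.9% and 24.9% at 6 months. With the GC trend subtracted 3 and 2 of the list were higher and none lower. The all-gene shares were then 14.9% higher and 11.5% lower at 2 months, and 14.2% and 13.2% at 6 months. *Nppa*, which is also an atrial marker, had ratios of 5.27 (5.21 to 5.32) and 4.53 (4.5 to 4.57), or 3.51 and 2.98 with the trend subtracted. *Nppb* had 2.48 (2.44 to 2.53) and 8.58 (8.41 to 8.76). The lowest were *Corin*, the protease that activates the *Nppa* product, at 1.12 at 2 months, and the clearance receptor *Npr3* at 0.717 at 6 months, which was 1.43 with the GC trend subtracted. Of 16 hypertrophy and peptide response genes, a list that holds *Nppa* and *Nppb* again, 6 were higher and 2 lower at 2 months and 11 higher and 1 lower at 6 months, with medians of 1.69 and 2.78. Of all genes 17.3% were higher and 22.5% lower at 2 months and 16.9% and 24.9% at 6 months. With the GC trend subtracted this list had 7 higher and 2 lower at 2 months, and 11 and 2 at 6 months. These counts stand beside all-gene shares of 14.9% and 11.5% at 2 months and 14.2% and 13.2% at 6 months. The leading gene at 2 months was *Acta1*, skeletal actin, at 5.35 (3.37 with the trend subtracted). At 6 months it was *Myh7*, the slow myosin heavy chain, at 47.2 (46.1 to 48.3), or 30.1 with the trend subtracted. The lowest were *Atf3* at 0.294 at 2 months and *Fos* at 0.413 at 6 months, both stress-induced transcription factors. At 6 months *Atf3* was at 3.1 (2.81 to 3.44). Its normalized counts in PIMT fl/fl were 2564 and 463 at 2 and 6 months.

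**Figure D4:**
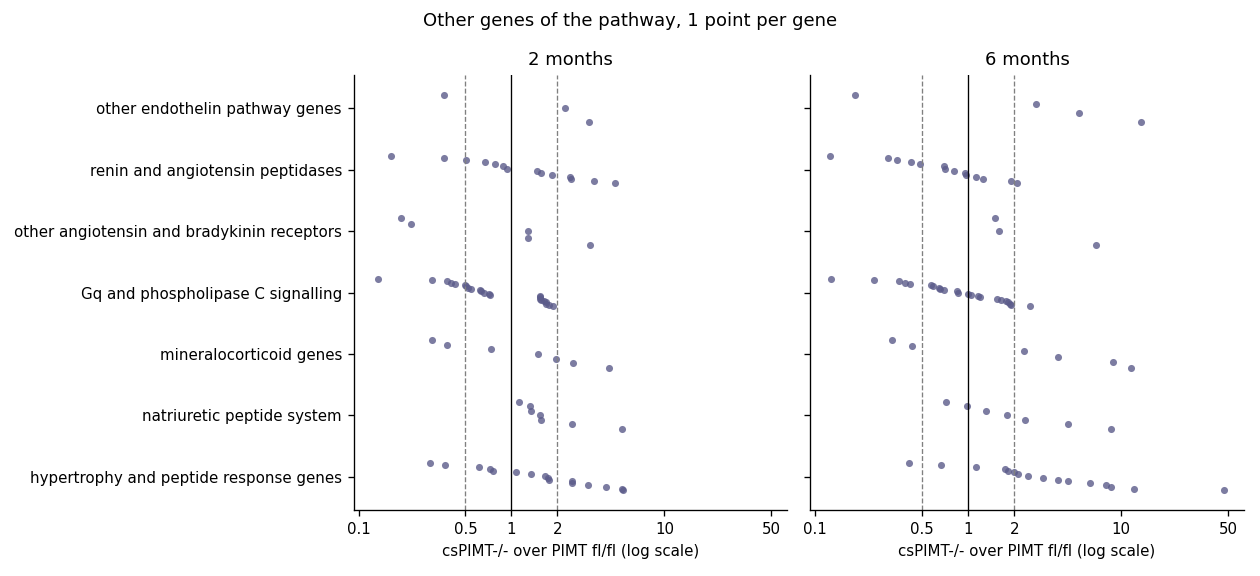
Ratio of csPIMT-/- over PIMT fl/fl (x axis, log scale) for the other genes of the pathway with at least 10 reads in either library, 1 point per gene in 7 lists, with dashed lines at 2-fold. *Agtr2* and *Mas1*, with no read in 6-month csPIMT-/-, are not drawn at 6 months, and the hypertrophy list holds 11 of 16 points above 2-fold at that age.

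The genes most like each of the 8 across the 4 libraries, by the root mean square distance between log2 values centred on the mean of each gene, were sought among 12823 genes with at least 100 reads in some library. *Edn3* had no gene within a distance of 0.25, and the nearest were *Myh7* (0.38), *Serpinb1c* (0.47) and *Krt18* (0.53). *Ace* had 25 genes within that distance, led by *Dpep1* (0.12), a kidney dipeptidase gene, at 1960 and 3433 in PIMT fl/fl and 7982 and 20373 in csPIMT-/- hearts, then *Cldn15* and *Tspan17* (both 0.13). *Agtr1a* had 165, led by *Ccl2*, *Poli* and *Gm7120*, and *Edn1* had 96, led by *Ip6k2*, *Sfrp1* and *Slc39a6*. *Ednrb* had 349, with *Polb*, *Wipf1* and *Cyyr1* nearest, *Ece1* had 557, with *Tcea2*, *A430105I19Rik* and *3110082I17Rik*, *Agt* had 1597, with *Npr1*, *9330020H09Rik* and *Dvl2*, and *Ednra* had 1865, with *2810001G20Rik*, *Fut10* and *Git2*. With 4 values per gene, likeness is a description only. The closest pair among the 8 themselves was *Ednra* and *Ednrb* at 0.35.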

How the data were processed

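Poly(A) RNA was sequenced from directional TruSeq libraries as single-end 50 bp reads (HiSeq2500). The authors trimmed and filtered the reads, aligned them to mm10 with STAR (version not given in the sources used here), counted them per gene with htseq-count (HTSeq 0.6.1p1 in the submitters' processing notes) and used DESeq2. The deposited values are a signal of 1 normalized count per gene symbol and library; the header of the file for 6-month csPIMT-/- hearts says read counts, yet its values are normalized alike. Whole reads were recovered by dividing each library by the value of 1 read, and 100% of values came out whole within 0.001 reads. Reads are not independent molecules, so intervals and limits cover counting error only.

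Ratios were taken on the deposited scale, common to the 4 libraries, with exact 95% Clopper-Pearson intervals, and genes needed 10 reads in either library. The GC trend was a lowess curve (span 0.3) of the log2 ratio (pseudocount 0.5 reads) on the GC content of the longest GENCODE M21 transcript, found for 98% of genes. limma 3.58.1 (R 4.3.3) was fitted to log2(normalized count + 1) over genes with 10 reads in 2 libraries, with a mean trend, on genotype and age, Benjamini-Hochberg adjusted over 14933 genes. On the recovered reads edgeR 4.0.16 called 1682 genes higher and 2558 lower, against 1644 and 2606 by limma, and DESeq2 1.42.0 called 2215 and 2985 with 579 adjusted p-values NA. Scripts used Python 3.11.15 and were tested on simulated data. No batch or date is given in the sources used here. Alternatives were pairwise and TMM scaling, GC subtraction, other controls, read minimums, pseudocounts and leaving out each library.

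The 8 genes, the pathway and marker lists and the tests were chosen with earlier results of these data known. Genes outside the 8 were named by rule: those whose products make or bind the peptides, and the highest and lowest ratio with 100 reads of each list at each age; the 3 genes nearest in pattern to each of the 8 were named too. Of the genes picked by these rules, 1 is left unnamed and its own values are not reported here; the list counts include it. Other markers named in the text, and *Mmel1* and *Kel*, were chosen after their values were seen.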

Additional observations from a re-analysis of the deposited data

Results flagged for a closer look

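*Edn1* stood out because its genotype ratio lay on opposite sides of 1 at the 2 ages. The csPIMT-/- library was lower than the PIMT fl/fl library at 2 months (ratio 0.684) and higher at 6 months (ratio 2.78). The lower 2-month value was not kept in other settings. It was 0.983 with the GC trend subtracted and 1.01 over the 6-month PIMT fl/fl library. With 1 library per group the difference between ages was not tested.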

How the results depend on the processing

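With 1 library per group, no result at a single age has a replicate error, and depth limited *Edn3* most, with 8 and 6 reads in the PIMT fl/fl libraries. No paired analysis was possible because each group has 1 library and no replicate number links them. The counts of the 8 genes past 2-fold were the same with pairwise size factors, TMM factors, no read minimum and the whole interval beyond 2-fold. At 2 months, 1 gene (*Ednrb*, 0.453) was more than 2-fold lower over the other control, and 1 over the mean of both controls; with at least 100 reads, 1 gene (*Ace*) was higher. At 6 months, 0 genes were lower with the GC trend subtracted or over the other control, and 3 rather than 4 were higher under each. Over both ages limma called 0 genes higher and 0 lower without the mean trend (2488 and 3452 at an unadjusted p under 0.05), and 0 and 0 with the GC trend subtracted (2022 and 1827). Leaving out each library in turn, with genotype alone in the fit, gave 301 to 1133 genes higher and 515 to 1966 lower; the lowest counts came without the 2-month PIMT fl/fl library (301 higher) and without the 6-month one (515 lower). A lone library left in a group is assumed there to vary like the others, and *Edn3* did not reach 10 reads in 2 libraries without either csPIMT-/- one. Log2 differences that changed sign, none of them past the threshold, were *Ednra* (0.30), *Ednrb* (0.46) and *Agt* (-0.07) with the GC trend subtracted, *Ednrb* without the 2-month csPIMT-/- library (-1.03 to 0.07 over the libraries left out) and *Edn1* without the 6-month one (-0.26 to 1.19). The cause was not tested.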
